A study of Mus musculus with 4 samples.

Results

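Fatty acid oxidation was examined in the bone marrow of obese mice through 10 genes. They were chosen by symbol for their roles in the pathway, with earlier results of these data known. They are Cpt1a and Cpt2 of the carnitine shuttle, the acyl-CoA dehydrogenases Acadvl, Acadl and Acadm, the trifunctional protein genes Hadha and Hadhb, the regulators Ppara and Pdk4, and the mitochondrial carrier gene Ucp2. All 10 were found among the 55401 genes quantified, and 9 of them passed the minimum of a mean FPKM of 0.1, which left 18596 genes to test. Ppara was below this minimum. FPKM counts fragments per length of transcript and per size of the library, so levels can be set side by side between genes. The values given below are FPKM summed over the transcripts of a gene and scaled between libraries (scaled FPKM).

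The RNA came from the tibial marrow of wild-type C57/B6 males that had received the high-fat diet (HFD) from the age of 8 weeks. After 6 weeks the obese mice were divided into a sedentary group (Ob) and a group that also ran on a treadmill at moderate intensity for 12 weeks, 1 h per day and 6 days per week (Ob + Exe). Both groups stayed on the HFD, so no lean mice enter the comparison, and 2 libraries of each group were sequenced out of the 9 mice that each group held. The study describes 2 marrows per group as sequenced, so each library is taken to be 1 mouse, and p-values measure the spread between these libraries only.

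The labels name bone marrow and also mesenchymal stem cells and fibroblasts, whereas the methods describe marrow spun out of the bone. Summed marker levels were 29105 to 68441 scaled FPKM for neutrophils and 54218 to 82321 for erythroid cells, against 35.6 to 50.4 for fibroblast and mesenchymal stem cell markers. Marrow stroma and osteoblast markers summed to 117 to 186. The neutrophil and erythroid markers were thus the more abundant RNA by far, and the description in the methods was followed. Such sums over different genes do not measure numbers of cells. The values rest on 8702 to 9952 Mb of aligned bases per library, and 12080 to 12547 genes reached 1 FPKM. In such bulk samples fewer cells of a type and less RNA per cell cannot be told apart.

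In mitochondrial fatty acid oxidation, long-chain acyl-CoA is bound to carnitine by CPT1 at the outer membrane, carried across the inner membrane and returned to CoA by CPT2. Each turn of the cycle then removes a 2-carbon unit in successive steps, which begin with a dehydrogenase fitted to the chain length and, for long chains, end on the trifunctional protein. PPARα, encoded by Ppara, is the nuclear receptor that switches on many of these genes in liver, heart and muscle during fasting and endurance activity. Pdk4 is among its best known targets there.

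No gene of the 10 passed the call, which asked for an unadjusted p under 0.05 in limma and a log2 fold change beyond 1. Over all genes tested 3.74% were called (696 genes, 510 lower and 186 higher in Ob + Exe), and no gene had an adjusted p under 0.05, the smallest being 0.738, although the unadjusted p was under 0.05 in 940 genes. The smallest unadjusted p among the 9 tested was 0.219, and their adjusted p ranged from 0.959 to 0.9997. In the mean, 7 of the 9 were higher in Ob + Exe and 2 were lower, with a median log2 fold change of 0.08 against -0.02 over all genes tested. This balance turned without scaling (3 higher, median -0.00668) and with the most abundant transcript only (3 higher, median -0.0668). For 7 of the 9 the log2 fold change was smaller than the SD between replicates.

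The intervals show how large a difference these libraries leave room for. The 95% interval of the log2 fold change lay between -1 and 1, that is within a 2-fold change either way, for 8 of the 9 genes, all except Pdk4. The same held for 32.4% of all genes tested, and for 72.7% of the 5800 genes whose mean was 10 scaled FPKM or more, a group to which all 8 belong. Smaller changes than these intervals were not detectable with 2 libraries per group. An exact permutation test of a single value in this design cannot give a two-sided p under 0.333.

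**Figure D1:**
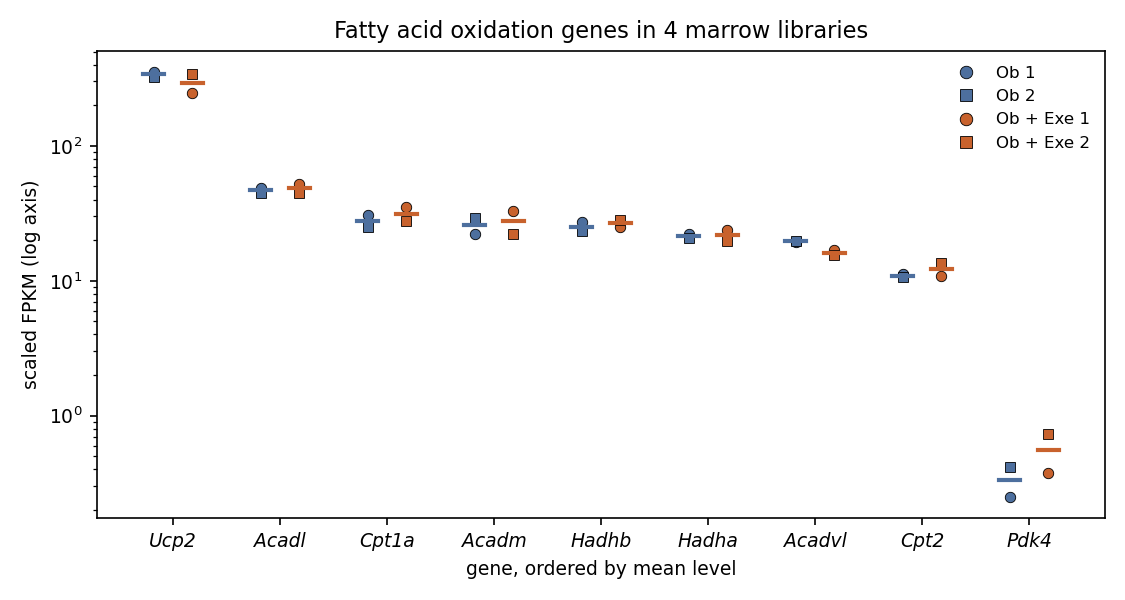
Scaled FPKM (log axis) of the 9 genes tested in each of the 4 libraries, ordered by mean level. Points are libraries and short bars are group means. The points of Ob (blue) and Ob + Exe (orange) overlap for 8 of the 9 genes, and for Acadvl both Ob + Exe points lie below both Ob points.

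The levels differed far more between the genes than between the groups. Ucp2 had a mean of 315 scaled FPKM over the 4 libraries and stood above 99.2% of the genes tested. Acadl followed with 47.7, then Cpt1a with 29.7, Acadm with 26.6, Hadhb with 25.9, Hadha with 21.7, Acadvl with 17.9 and Cpt2 with 11.6. Pdk4 had 0.444, which is above only 22.5% of the genes tested. Each gene stood above the next in all 4 libraries except for Cpt1a over Acadm, which held in 3, and Acadm over Hadhb, which held in 2, so these 3 neighbours are not separated beyond their spread.

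Cpt1a (ENSMUSG00000024900.5, chr19:3322334-3385733 on the plus strand, GRCm38) encodes the liver-type carnitine palmitoyltransferase that commits long-chain fatty acids to oxidation. It had 30.6 and 25.2 scaled FPKM in Ob against 35.0 and 27.8 in Ob + Exe. The second Ob + Exe library lay below the first Ob library, so the groups overlap. The means were 27.9 ± 3.79 and 31.4 ± 5.08 (SD, n = 2 each), and the log2 fold change was 0.17 with an SE of 0.232 and a 95% interval from -0.41 to 0.74 (limma, adjusted p = 0.975). Without the first Ob + Exe library it was 0.00268.

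Cpt2 (chr4:107903981-107923610, minus strand), the enzyme that returns the acyl group to CoA inside the mitochondrion, had 11.1 and 10.7 scaled FPKM in Ob against 10.9 and 13.4 in Ob + Exe. A single library, the second of Ob + Exe, stood apart from the other 3. The log2 fold change was 0.15 (95% interval -0.44 to 0.74), and 0.00213 without that library. Cpt1a was the higher of the pair in every library, with a ratio to Cpt2 from 2.07 to 3.20.

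The CPT1 isoforms were unequally present. Cpt1b, the muscle isoform, had 0.263 and 0.931 scaled FPKM in Ob against 0.261 and 0.0935 in Ob + Exe. Its groups were separated, but by 0.263 against 0.261 at the closest, and it was not called (log2 fold change -1.21). Cpt1c, an isoform known from neurons, had 1.18, 1.92, 1.72 and 0.524 in the same order. The level of Cpt1a was 27.1 to 297 times that of Cpt1b, and it was the most abundant CPT1 isoform in every library.

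**Figure D2:**
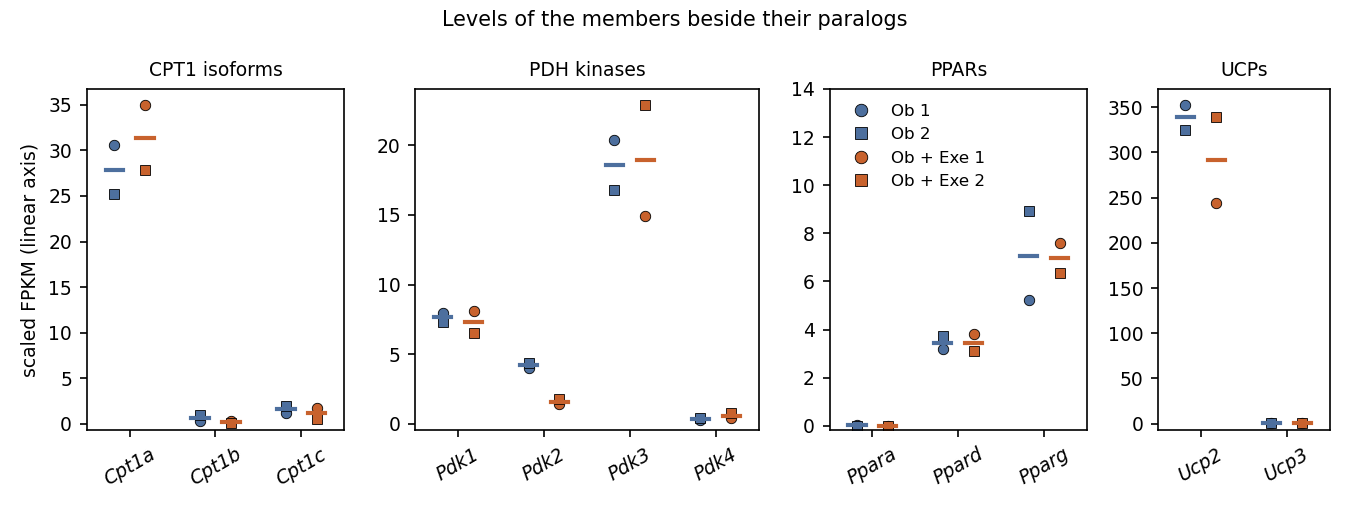
Scaled FPKM (linear axes) of Cpt1a, Pdk4, Ppara and Ucp2 beside their paralogs, with a point for each library and a bar for each group mean. Cpt1a and Ucp2 are the main members of their families, Ppara lies at 0 beside Ppard and Pparg, and Pdk4 has the lowest level of the 4 kinases, of which Pdk2 separates the groups.

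Acadvl (chr11:70010183-70015411, minus strand), the very-long-chain acyl-CoA dehydrogenase of the inner membrane, was the only gene of the 9 whose groups did not overlap. It had 19.5 and 19.9 scaled FPKM in Ob against 16.8 and 15.4 in Ob + Exe, both lower than either Ob value. The means were 19.7 ± 0.298 and 16.1 ± 0.970 (SD, n = 2 each), 18.2% less in Ob + Exe, and the log2 fold change was -0.29 with an SE of 0.210 and an interval from -0.81 to 0.23 (limma, adjusted p = 0.959). Groups separated in this direction in 18.3% of all genes tested and in the higher direction in 14.3%, so 1 of 9 is no more than the whole table gives. The difference is small and did not pass the test.

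Part of the Acadvl signal lies where another gene is annotated. The last 2119 bases of the genomic span of Acadvl, introns included (chr11:70010183-70012301), are shared with the span of Dvl2 on the opposite strand. Dvl2 is a Wnt signalling gene with 3.60 to 4.16 scaled FPKM. The longest match between the spliced coding transcript of Acadvl and Dvl2 was 256 of its 2168 bases (11.8%). The strand setting of the quantification is not given in the sources used here. The full coding transcript of Acadvl, ENSMUST00000102574.9, took 16.6 and 14.2 scaled FPKM in Ob against 10.6 and 13.3 in Ob + Exe. Both Ob + Exe values are again below both Ob values. A short retained-intron transcript of 538 bases, ENSMUST00000134516.1, lies wholly in the shared genomic span and had 2.50 and 4.67 in Ob against 6.16 and 1.56 in Ob + Exe. How much of it belongs to each gene cannot be told apart from these values.

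Cell type markers that separate the same groups stand beside this difference. Over all genes tested, 18.3% were separated lower and 14.3% higher. The summed scaled FPKM of B lineage markers was 210 and 216 in Ob against 164 and 132 in Ob + Exe, with 6 of 10 markers separated lower and 2 called (Cd79a and Igll1). Endothelial markers summed to 18.3 and 17.1 against 13.8 and 11.8, with 5 of 6 separated lower. Adipocyte markers summed to 134 and 133 against 164 and 169. Of the 8 tested, 2 were separated higher (Fabp4 and Lpl) and 0 lower, and Lep was at 0 in every library. Without Fabp4 the other 10 summed to 74.3 and 75.7 against 60.5 and 90.5 and overlapped. Cd36, the most abundant of those 10, had 47.0 and 42.4 in Ob against 25.8 and 56.2 in Ob + Exe. Skeletal muscle markers summed to 13.2 and 8.19 against 18.0 and 18.8, with 5 of the 10 tested separated higher, 1 called (Acta1) and Myh2 at 0. Fibroblast and mesenchymal stem cell markers summed to 42.6 and 35.6 against 50.4 and 45.1. The sums of the other 9 lists overlapped, among them the megakaryocyte list with Gp1ba and Gp1bb called lower, the stroma list with Col1a1 and Bglap2 called lower and the eosinophil and basophil list with Prg2 called higher. Their part in the levels of the fatty acid oxidation genes was not tested.

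Acadl (chr1:66830839-66863277, minus strand), the long-chain dehydrogenase, was the most abundant of the 7 enzyme genes. It had 48.9 and 44.9 scaled FPKM in Ob against 52.6 and 44.4 in Ob + Exe, so the Ob + Exe libraries were the highest and the lowest of the 4. The means were 46.9 ± 2.79 and 48.5 ± 5.81 (SD, n = 2 each), with a log2 fold change of 0.04 (95% interval -0.46 to 0.55). The level of Acadl over that of Acadvl was 2.51 and 2.26 in Ob against 3.13 and 2.88 in Ob + Exe, a ratio in which the groups do not overlap and which was not tested further.

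Acadm (chr3:153922357-153944632, minus strand) encodes the medium-chain dehydrogenase, the enzyme lost in MCAD deficiency. Its values were 22.3 and 29.2 scaled FPKM in Ob against 32.8 and 22.2 in Ob + Exe. The spread within each group was larger than the difference between the means of 25.8 ± 4.88 and 27.5 ± 7.49 (SD, n = 2 each), and the log2 fold change of 0.08 had an interval from -0.61 to 0.77.

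Hadha and Hadhb encode the alpha and beta subunits of the mitochondrial trifunctional protein, which carries out the hydratase, long-chain dehydrogenase and thiolase steps. Hadha (chr5:30118304-30155162, minus strand) and Hadhb (chr5:30155248-30184593, plus strand) lie head to head, with 85 bases between the starts of these spans. The RefSeq starts used for the search below differ, at 30154980 for Hadha and 30155253 for Hadhb. The stretch is printed because both genes are transcribed away from it. The capitals mark GGGCGG, the core of the GC box, which a search of either strand of the promoter sequences from RefSeq (250 bases before to 50 after each start) found in 7 of the 10 genes and in 35.7% of 32851 promoters. The windows of Hadha and Hadhb overlap. The only match of Hadha, the first in this stretch, is also counted for Hadhb.
chr5:30155163-30155247 (GRCm38.p6, plus strand): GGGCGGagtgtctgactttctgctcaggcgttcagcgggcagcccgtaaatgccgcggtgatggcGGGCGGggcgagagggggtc

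The level of Hadha was 22.3 and 20.9 scaled FPKM in Ob against 23.8 and 19.6 in Ob + Exe. The Ob + Exe libraries enclosed the Ob libraries, and the means of 21.6 ± 1.01 and 21.7 ± 2.995 (SD, n = 2 each) gave a log2 fold change of 0.00 (SE 0.219, 95% interval -0.54 to 0.54). Hadhb had 27.1 and 23.3 in Ob against 25.1 and 28.3 in Ob + Exe, with a log2 fold change of 0.09 (95% interval -0.44 to 0.61). The subunits join in equal numbers in the protein, and the ratio of Hadha to Hadhb transcript was 0.824 and 0.898 in Ob against 0.950 and 0.692 in Ob + Exe. Hadhb was the higher in every library.

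Below the gene level, Hadhb was the least steady of the genes examined. Its coding transcript ENSMUST00000114786.7 took 14.9 and 19.4 scaled FPKM in Ob against 24.1 and 3.995 in Ob + Exe, and ENSMUST00000026841.14 took 11.7 and 3.33 in Ob against 0 and 23.7 in Ob + Exe. The share of the first in the gene went from 14.1% to 96.0%, both in Ob + Exe libraries, while the sum stayed between 23.3 and 28.3. By the GENCODE vM21 annotation these transcripts share 14 of their 16 exons. They differ in the first exon (chr5:30155272-30155382 against chr5:30155248-30155339) and in the end of the last exon (30184589 against 30184593), so few bases tell them apart. The split between them does not follow the groups. A pair of other annotated genes, Gm13910 and Gm9108, match the Hadhb transcript at 99.8% and 97.6% of aligned bases over 69.7% and 69.6% of its length. Gm9108 had at most 0.284 FPKM and Gm13910 was not analysed here, so reads shared with them make the Hadhb level uncertain to an unknown extent.

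**Figure D3:**
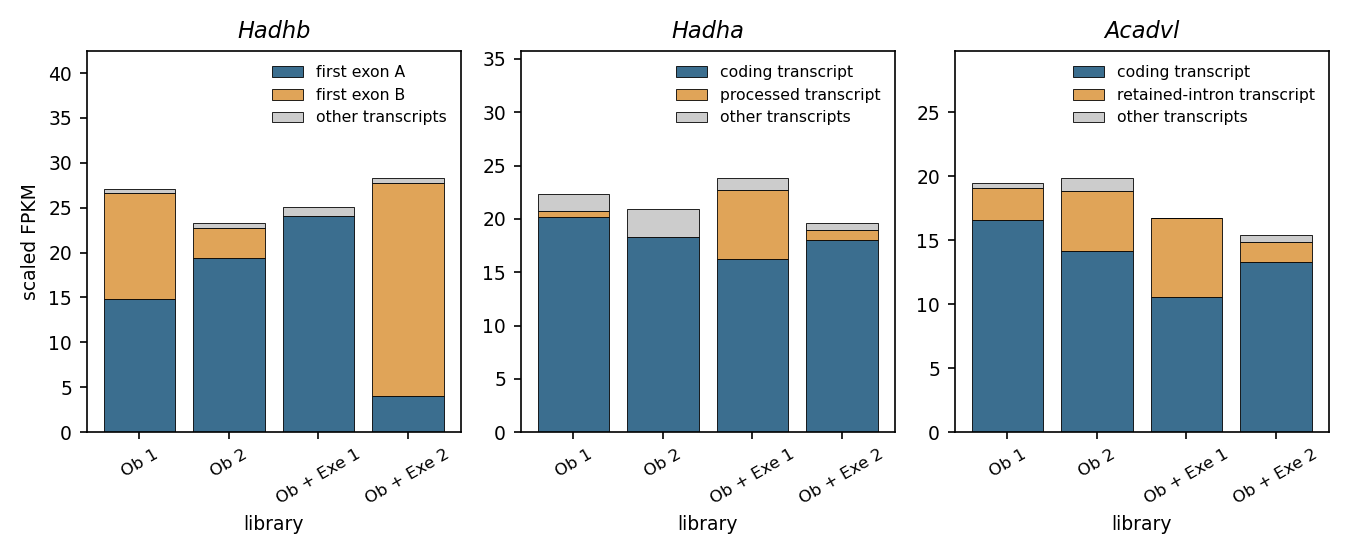
Scaled FPKM by library for the transcripts of Hadhb, Hadha and Acadvl, stacked to the gene's sum. In Hadhb the transcripts with first exon A (ENSMUST00000114786.7) and first exon B (ENSMUST00000026841.14) trade places between libraries of the same group, and the sum stays between 23.3 and 28.3.

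Hadha had a smaller shift of the same kind. Its coding transcript ENSMUST00000156859.2 took 20.2 and 18.3 scaled FPKM in Ob against 16.3 and 18.0 in Ob + Exe, a separated but small difference. A processed transcript without an annotated reading frame, ENSMUST00000026843.11, took 6.47 in the first Ob + Exe library and 0 to 0.973 in the others. For the shuttle genes and Acadl no such question arises, since the main transcript held at least 98.6% of Cpt1a, 99.6% of Cpt2 and 99.99% of Acadl in every library.

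Summed over the 7 enzyme genes of shuttle and cycle, the libraries had 182 and 174 scaled FPKM in Ob against 197 and 171 in Ob + Exe. The first Ob + Exe library was the highest and the second the lowest, so the groups overlap in the sum as well. Over the 9 genes tested, the highest value fell in the first Ob + Exe library for 4 genes and in the second for 3. The lowest value fell in the second Ob + Exe library for 4 genes and in the second Ob library for 3.

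Ppara (chr15:85734983-85802819, plus strand) was all but absent. It had 0.0233 scaled FPKM in the first Ob library, from 5 read equivalents, and was listed at 0 in the other Ob library and in both Ob + Exe libraries. A value of 0 still allows 3 reads, which on its longest transcript of 3413 bases would be 0.0131 to 0.0160 scaled FPKM in those libraries (counting error only). No fold was computed. The other PPARs were present and overlapped between the groups. Ppard, which is expressed in most tissues, had 3.19 and 3.73 in Ob against 3.81 and 3.11 in Ob + Exe. Pparg, the adipocyte and macrophage receptor, had 5.22 and 8.92 in Ob against 7.59 and 6.34 in Ob + Exe. The coactivator gene Ppargc1a was also near 0, with 0.0256 and 0.0379 in Ob against 0.201 and 0 in Ob + Exe.

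Pdk4 (chr6:5483351-5496309, minus strand) encodes the kinase that shuts off pyruvate dehydrogenase and so spares glucose while fat is burned. It had 0.252 and 0.417 scaled FPKM in Ob against 0.379 and 0.728 in Ob + Exe, from 60 to 139 read equivalents per library. The groups overlap, since the first Ob + Exe library lay below the second Ob library. The log2 fold change of 0.56 was the largest of the 9, but its SE was 0.650 and its interval ran from -1.04 to 2.17 (limma, adjusted p = 0.970), so the interval holds a 2-fold difference in either direction. Without the second Ob + Exe library the log2 fold change was 0.17. In the second Ob library 40.2% of the Pdk4 level was given to a retained-intron transcript.

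The other kinases of pyruvate dehydrogenase were more abundant. Pdk3 had 20.4 and 16.8 scaled FPKM in Ob against 14.9 and 22.9 in Ob + Exe, and Pdk1 had 7.97 and 7.32 against 8.11 and 6.50. Both overlap between the groups. Pdk2, a broadly expressed isoform, had 3.99 and 4.38 in Ob against 1.40 and 1.74 in Ob + Exe, both lower than either Ob value. It fell by 1.36 on the log2 scale (SE 0.345, 95% interval -2.21 to -0.51, limma, adjusted p = 0.959) and was called. The call did not hold when either Ob library was left out, while the log2 fold change stayed at -1.43 without the first and -1.30 without the second.

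Ucp2 (chr7:100493337-100502020, plus strand) encodes a carrier of the mitochondrial inner membrane that is known to be abundant in spleen, macrophages and other immune cells. It had 353 and 325 scaled FPKM in Ob against 244 and 340 in Ob + Exe. Only the first Ob + Exe library stood low. The means were 339 ± 19.5 and 292 ± 67.5 (SD, n = 2 each) and the log2 fold change was -0.23 (SE 0.251, 95% interval -0.85 to 0.39). Without the first Ob + Exe library the log2 fold change was 0.01, so the lower mean rests on that library. Its last 305 bases overlap Dnajb13 on the other strand, which had 3.79 to 7.46 scaled FPKM. Ucp1, the thermogenic uncoupler of brown fat, was at 0 in 3 libraries and at 0.0142 in the first Ob library, and Ucp3 of muscle had 0.316 to 0.510.

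The DNA before the start sites was searched for the sequence that PPARs and related nuclear receptors bind. AGGTCA on either strand was present in 3 of the 10 promoters, against 16.3% of all promoters. An exact pair of them in the same direction with 1 base between was in none of the 10 and in 0.0396% of all. This exact string is so rare that its absence from 10 promoters says nothing on looser forms of the PPAR element. All 3 stretches are shown, since they hold the only matches in these windows, with the match in capitals (TGACCT is AGGTCA read on the other strand). They are printed along the strand of each gene, and the matches begin at -249, -87 and -94 relative to the start.
Acadm, chr3:153944875-153944893 (minus strand): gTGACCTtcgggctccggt
Acadvl, chr11:70015498-70015527 (minus strand): atggatcaccctAGGTCAggtagaatacag
Cpt1a, chr19:3323195-3323224 (plus strand): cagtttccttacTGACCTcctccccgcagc
The longer letters of the estrogen-related receptor element, TNAAGGTCA, were in 0 of the 10 and in 1.28% of all promoters. CACGTG was in 0 of the 10 and 7.15% of all, and CCAAT in 2 of the 10 and 37.4% of all. A match is a run of letters and not a measured binding site.

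The pathway around these genes was described with 11 further lists of 143 genes, of which 125 were tested. Of these, 3 were called (2.4%, 1 higher and 2 lower), and 21 were separated higher and 21 lower. Their median log2 fold change was 0.02. The share called is close to that of the whole table, with as many genes separated higher as lower. Groups separated higher in 14.3% of all genes tested and lower in 18.3%. The counts of each list below stand against these shares, and no list was tested as a set. Some genes are on more than 1 list and are counted in each, so the lists are not independent.

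**Figure D4:**
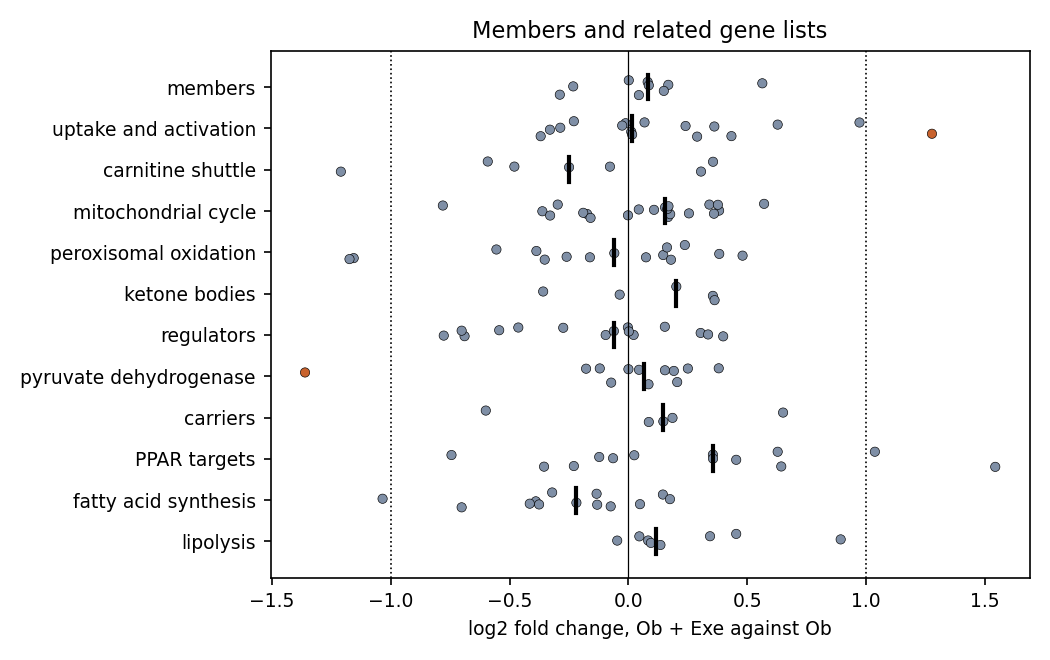
Log2 fold changes, Ob + Exe against Ob, of the 9 genes tested and of 11 related gene lists. Each point is a gene, orange where called, black bars are medians and dotted lines mark -1 and 1. Acsm3, listed at 0 in Ob + Exe, is left out. The medians lie between -0.25 and 0.36.

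Among the other enzymes of the mitochondrial cycle, 0 of 21 were called, 5 were separated higher and 1 lower, and the median was 0.15. Acads, the short-chain dehydrogenase, had 12.4 and 12.9 scaled FPKM in Ob against 13.6 and 14.9 in Ob + Exe, with a log2 fold change of 0.17. Pcca, a subunit of the propionyl-CoA carboxylase that takes up odd-chain ends, had the smallest p of the list, with 2.96 and 2.73 in Ob against 1.41 and 1.84 in Ob + Exe (log2 fold change -0.78, limma, adjusted p = 0.959). It was the 1 separated lower, and Ggact overlaps it on the other strand.

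Of 7 further shuttle genes 0 were called, with 2 separated each way and a median of -0.25. Crat, carnitine acetyltransferase, had 21.1 and 17.7 scaled FPKM in Ob against 11.7 and 16.3 in Ob + Exe (log2 fold change -0.48). Slc25a20, the carnitine-acylcarnitine carrier between CPT1 and CPT2, had 14.7 and 10.1 in Ob against 15.5 and 15.8 in Ob + Exe (log2 fold change 0.36). Neither passed the test, and the direction differed between them.

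Uptake and activation held 2 of the 3 called genes, out of 17 tested. Fabp5, a fatty acid binding protein of epidermis, macrophages and fat, rose from 18.3 and 24.8 scaled FPKM in Ob to 55.4 and 48.4 in Ob + Exe. Its log2 fold change was 1.28 with an SE of 0.239 and an interval from 0.69 to 1.87 (limma, adjusted p = 0.941), and both Ob + Exe libraries were above both Ob libraries. Gm14328 and Gm6166, which match its transcript at 97.3% and 98.3% of aligned bases, had at most 0.81 FPKM. Acsm3, a medium-chain acyl-CoA synthetase, had 0.461 and 0.536 in Ob, from 67 and 63 read equivalents, and was listed at 0 in both Ob + Exe libraries. It was called lower (limma, adjusted p = 0.959), with no fold given against values of 0, and the call was lost with a pseudocount of 1. Most of its genomic span, introns included, overlaps the span of Eri2 on the opposite strand. Eri2 had 4.77 to 9.70 scaled FPKM.

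The 13 tested genes known as further PPAR targets included 0 called, with 4 separated higher, 0 lower and a median of 0.36. Of these 4, Fabp4, Plin2 and Slc25a20 are also counted in other lists. Fabp4, the binding protein of adipocytes and macrophages, had 59.2 and 57.0 scaled FPKM in Ob against 103 and 78.1 in Ob + Exe (log2 fold change 0.63, limma, adjusted p = 0.959), short of the fold that a call asks for. Fabp4 is also on the adipocyte marker list, whose sum overlaps between the groups without it. Plin2, a coat protein of lipid droplets, had 69.1 and 61.3 against 79.7 and 99.7 (log2 fold change 0.45).

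The 8 tested lipolysis genes had 0 called, 3 separated higher and a median of 0.11. G0s2, an inhibitor of the triglyceride lipase ATGL, had 19.6 and 16.0 scaled FPKM in Ob against 40.3 and 27.0 in Ob + Exe (log2 fold change 0.89, limma, adjusted p = 0.959). Of 13 fatty acid synthesis genes 0 were called, with 5 separated lower, 0 higher and a median of -0.22, and Acaca, acetyl-CoA carboxylase, had a log2 fold change of -0.70 (95% interval -1.89 to 0.48) and shares a near-identical stretch with Gm5182. Of 15 peroxisomal genes 0 were called and 5 were separated lower. Among them Ehhadh, the peroxisomal bifunctional enzyme, had 1.26 and 0.909 against 0.365 and 0.494 (log2 fold change -1.16, limma, adjusted p = 0.959).

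Of the 15 regulators 0 were called, 1 was separated higher and 4 lower. The smallest p belonged to Nr4a1, an immediate-early nuclear receptor, with 8.09 and 10.5 scaled FPKM in Ob against 5.75 and 4.94 in Ob + Exe (log2 fold change -0.78, limma, adjusted p = 0.959). Of 5 tested ketone body genes 0 were called, with 2 separated higher, 0 lower and a median of 0.20. Of 5 tested carriers related to Ucp2 0 were called, with 1 separated each way and a median of 0.15. Slc25a4, an adenine nucleotide carrier, had the smallest p of them and a log2 fold change of -0.60, and Slc25a27 was the 1 separated higher, with 0.65. The 12 genes around pyruvate dehydrogenase had Pdk2 as their 1 called gene and a median of 0.06.

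**Figure D5:**
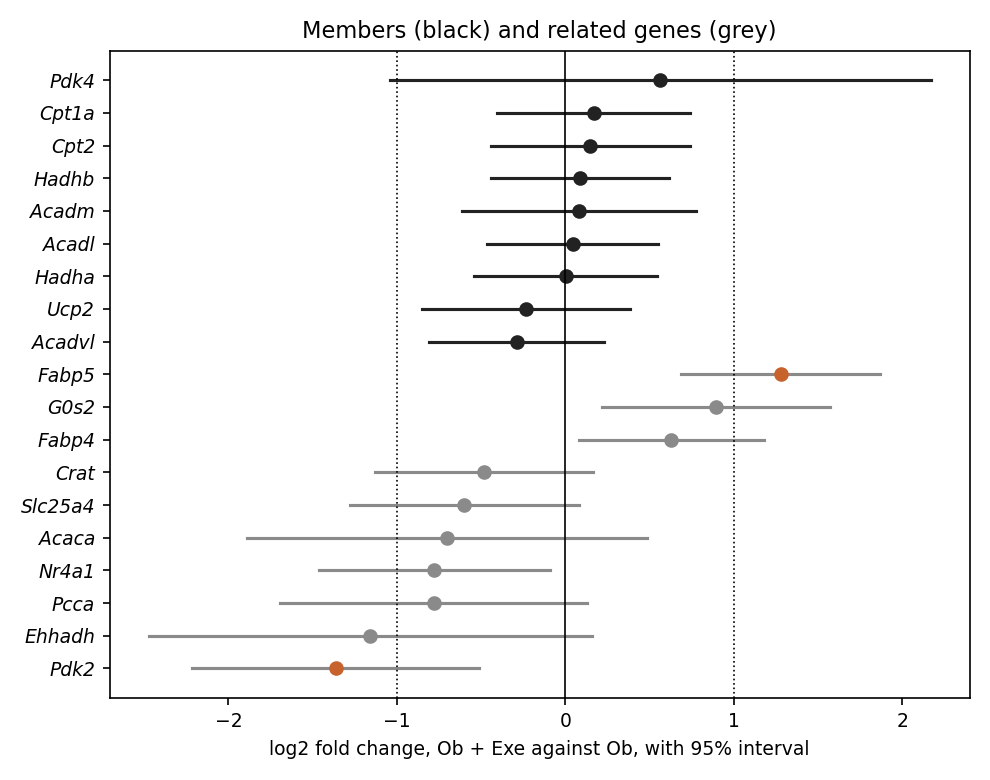
Log2 fold changes with 95% intervals of the 9 genes tested (black) and of the related genes that were called or had the smallest p of their list (grey, orange where called), without Acsm3 and the ketone body list. Of the 9, all except Pdk4 have intervals between the dotted lines at -1 and 1, and every one crosses 0. Fabp5 lies at 1.28 and Pdk2 at -1.36.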

How the data were processed

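Per the study's methods, reads were trimmed (fastp), freed of rRNA, aligned to GRCm38 (HISAT2), filtered (SAMtools) and assigned to the transcripts of GENCODE vM25 (StringTie). Tool versions are not given in the sources used here. The authors deposited 1 table per library, with the coverage of each transcript (a signal not normalized for depth) and its FPKM. The authors' own test was DESeq2, which takes counts. FPKM of 142604 transcripts were summed per gene. A mean FPKM of 0.1 over the libraries was the minimum. Libraries were scaled by median-of-ratios factors (0.945 to 1.04), and log2(scaled FPKM + 0.1) was tested with limma 3.58.1 in R 4.3.3 (intensity trend, 2 residual and 3.79 prior degrees of freedom, Benjamini-Hochberg adjustment over all genes tested). Fold changes are on this scale, which understates changes of low genes such as Pdk4. Read equivalents are coverage × length / 150 bases and are not whole counts. The fit was tested on simulated data.

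Transcript types, exons and transcript sequences came from GENCODE vM21, which has the same spans for the 10 genes. Overlaps were taken from the gene spans in the deposited data, and promoters from RefSeq (GRCm38.p6). Python 3.11.15, pandas 2.3.3 and matplotlib 3.10.9 were used. All 10 genes are named, with each related gene that was called or, failing that, the smallest p of its list, except for the ketone body list, of which no single gene is reported here. Plin2, Acads, Slc25a20, Slc25a27 and the paralogs were named after their values were seen. The genes and lists were chosen with earlier results of these data known.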

Additional observations from a re-analysis of the deposited data

How the results depend on the processing

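In each of 16 alternatives 0 of the fatty acid oxidation genes were called, including the fit with the replicate number as a block (0) and the crossed pairing added after seeing the data (0), and none had an unadjusted p under 0.05 (smallest 0.0881, Ucp2 without the second Ob + Exe library). The labels do not say whether the replicate numbers pair the libraries. The correlation of replicate differences was -0.106 over all genes tested and -0.235 over those with a mean FPKM from 1 up. With 1 difference per group it cannot decide whether they were paired. The count of separated genes went from 1 to 2 without scaling (Acadvl and Ucp2 lower), 2 with TMM (Cpt2 higher), 2 with quantile normalization (Pdk4 higher) and 3 with the most abundant transcript only (Hadha lower, Pdk4 higher), with Acadvl lower in each. The median log2 fold change of 0.08 became -0.0668 with the most abundant transcript only (3 of 9 higher), -0.00668 without scaling (3 of 9 higher) and -0.0163 to 0.142 when a library was left out, the lowest without the second Ob library. Directions near 0 turned in several settings. With the most abundant transcript only, values were -0.000876 for Acadl, -0.0668 for Acadm, -0.211 for Hadha and -0.825 for Hadhb. Without scaling they were -0.0437, -0.00668, -0.0861 and -0.00191 in that order. With quantile normalization Acadl had -0.00113 and Hadha -0.0461, with voom Acadm had -0.0148 and Hadha -0.0423, and with a minimum FPKM of 1 Hadha had -0.00362. Leaving out a library gave 0.00268 to 0.333 for Cpt1a, 0.00213 to 0.296 for Cpt2, 0.169 to 0.959 for Pdk4, -0.0780 to 0.166 for Acadl, -0.199 to 0.361 for Acadm, -0.139 to 0.142 for Hadha, -0.0240 to 0.196 for Hadhb and -0.470 to 0.00538 for Ucp2. The cause was not tested. Acadvl stayed negative in every setting (-0.35 to -0.23 with a library left out).

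Over all genes, 696 calls became 455 with voom on read equivalents, 267 with a minimum FPKM of 1, 222 with a pseudocount of 1, 1060 without the intensity trend and 744 to 1920 with a library left out (1260 without the first and 1920 without the second Ob + Exe library). The related lists went from 3 calls to 5 without the trend, 5 with the crossed pairing, 6 with the most abundant transcript only and 2 to 5 with a library left out (5 without the second Ob + Exe library). Fabp5 had an adjusted p of 0.0693 (limma) only with the crossed pairing, which was added after seeing the data. In the other alternatives its adjusted p (limma) ran from 0.265, with the replicate number as a block, to 0.994, with a minimum FPKM of 1. Ehhadh was called with voom and without the trend, and G0s2 without the second Ob + Exe library.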
